A study of Bos indicus with 6 samples.

Results

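The isthmus, the narrow part of the oviduct that opens into the uterus, carried transcripts of most facilitative glucose carriers, of several lactate carriers and of the equilibrative nucleoside carriers in all 6 cows examined. Members were taken by symbol, as every row of the deposited gene table named SLC2A, SLC5A, SLC16A, SLC28A or SLC29A followed by a number, and 43 of 24616 rows met this rule. They are 12 SLC2A, 9 SLC5A, 14 SLC16A, 3 SLC28A and 4 SLC29A transporters, 42 in all. The remaining row is SLC2A4RG, a DNA-binding regulator named for the SLC2A4 promoter and not a transporter.

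The samples were isthmus tissue, through the whole oviduct wall, of 6 healthy multiparous Nelore (Bos indicus) cows on day 4 after the GnRH injection that induced ovulation, with 1 RNA-seq library per cow. The LF/LCL group (cows 617, 79 and 527) was managed to ovulate a larger follicle and form a larger corpus luteum, and the SF/SCL group (cows 856, 489215 and 97) a smaller one. Both groups were pre-synchronized with a prostaglandin F2α analog (sodium cloprostenol) and the GnRH agonist buserelin, and received an intravaginal progesterone device with estradiol benzoate, cloprostenol again at and after device removal, and buserelin. LF/LCL cows received a further cloprostenol dose at device insertion, and their device was removed 42 h before GnRH, against 30 h in SF/SCL. For sequencing, the study ranked its animals and took those at the upper end of LF/LCL and at the lower end of SF/SCL, so the cows are extremes of their groups.

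Glucose enters cells by the facilitative GLUT proteins (SLC2A), which carry hexoses down their gradient, and by the SGLT proteins and their relatives (SLC5A), which couple the solute to sodium and so depend on the sodium pump. Lactate and pyruvate cross with a proton through the monocarboxylate transporters (MCT, SLC16A), of which the lactate carriers need a chaperone, basigin (BSG) or embigin (EMB), to reach the plasma membrane. Nucleosides are concentrated by the sodium-coupled CNT proteins (SLC28A) and equilibrated by the ENT proteins (SLC29A), which also end adenosine signalling at the cell surface. Oviduct fluid holds glucose, lactate and pyruvate, which the early embryo uses, and these carriers are known routes of such solutes across cell membranes.

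Values are normalized read counts, meaning reads per gene divided by the size factor of the library. The libraries held 23899117 to 34193164 reads counted to genes, with a median of 27155932.5, and size factors ran from 0.7511 to 1.3165. Cow 489215 stood apart from the other SF/SCL cows. The mean chi-square per gene of its reads against cows 856 and 97 was 473.32 and 400.09, whereas the other within-group pairs gave 34.45 to 44.15. Its value lay outside the range of the other 5 cows in 72.4% of the 15387 genes tested and in 21 of the 35 members tested (13 above and 8 below), so fold changes or adjusted p-values below are also given without it.

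The markers of the labelled tissue were present, and several cell-type lists moved with the groups or with cow 489215. Summed smooth muscle markers (7 genes, of which MYH11 and SYNM were higher in every LF/LCL cow) were 706372 to 830538 in LF/LCL, 324138 in cow 856, 386925 in cow 97 and 1198311 in cow 489215, although SYNM was lowest in cow 489215 (4730.3). Epithelial markers (7 of 8 symbols found, 4 not overlapping) summed to 25849.6 to 39681 in LF/LCL and 41556 to 59859 in SF/SCL. Ciliated cell markers (8 genes, 3 not overlapping, PIFO at 0) summed to 33846 to 44849 and 43370.5 to 67068. Secretory cell markers (4 genes, 1 not overlapping) summed to 4086 to 4795 in LF/LCL, 280068 and 336788 in cows 856 and 97, and 8089 in cow 489215. Nearly all of the 2 high sums was OVGP1, the oviduct-specific glycoprotein, with 271794 and 325158 in cows 856 and 97, 729.6 in cow 489215 and 287 to 1949.9 in LF/LCL. Fibroblast markers (6 genes, 2 not overlapping) summed to 81269.9 to 108098 in LF/LCL and 50666 to 78648 in SF/SCL. Mesothelial markers (4 genes) summed to 2451 to 3313 in LF/LCL and 3483 to 26725 in SF/SCL, where MSLN was higher in every SF/SCL cow but LRRN4 was higher in every LF/LCL cow (175 to 412 against 3.8 to 16.3). Glial and nerve markers (7 genes, CHAT at 0) summed to 2952 to 5585 and 9059.9 to 32354, a sum carried by S100B. The sums for endothelium (6 genes, 6201 to 11471), leukocytes (7 genes, 1581 to 2393), adipocytes (2 genes, 3.25 to 15.8) and erythrocytes (6 rows, 7.03 to 25.3) overlapped between groups. In bulk tissue, fewer cells of a type and less RNA per cell cannot be told apart, and the part of these cell types in the differences below was not tested.

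Of the 43 members, 35 passed the filter on low and erratic values (mean normalized count above 5 and above the SD over the 6 cows). SLC2A2, the glucose carrier of liver and pancreatic beta cells, and SLC5A7, the choline transporter of cholinergic nerves, had 0 reads in every library, which leaves room for up to 3 reads in each, or 2.28 to 3.99 normalized counts. SLC5A4, SLC5A11, SLC5A12, SLC16A8 and SLC28A2 had means of 0.368 to 1.28. SLC16A12, a creatine transporter, was dropped for its spread, with 73.3, 5.63 and 9.66 in LF/LCL cows 617, 79 and 527 and 0, 5.32 and 0 in SF/SCL cows 856, 489215 and 97. Its groups did not overlap, yet the LF/LCL level rested on cow 617. The nearest values of the groups, in cows 79 and 489215, were 6 and 4 reads, too few to tell those cows apart. SLC5A1, SLC5A3, SLC5A8, SLC2A7 and SLC2A14 were not analysed here.

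**Figure D1:**
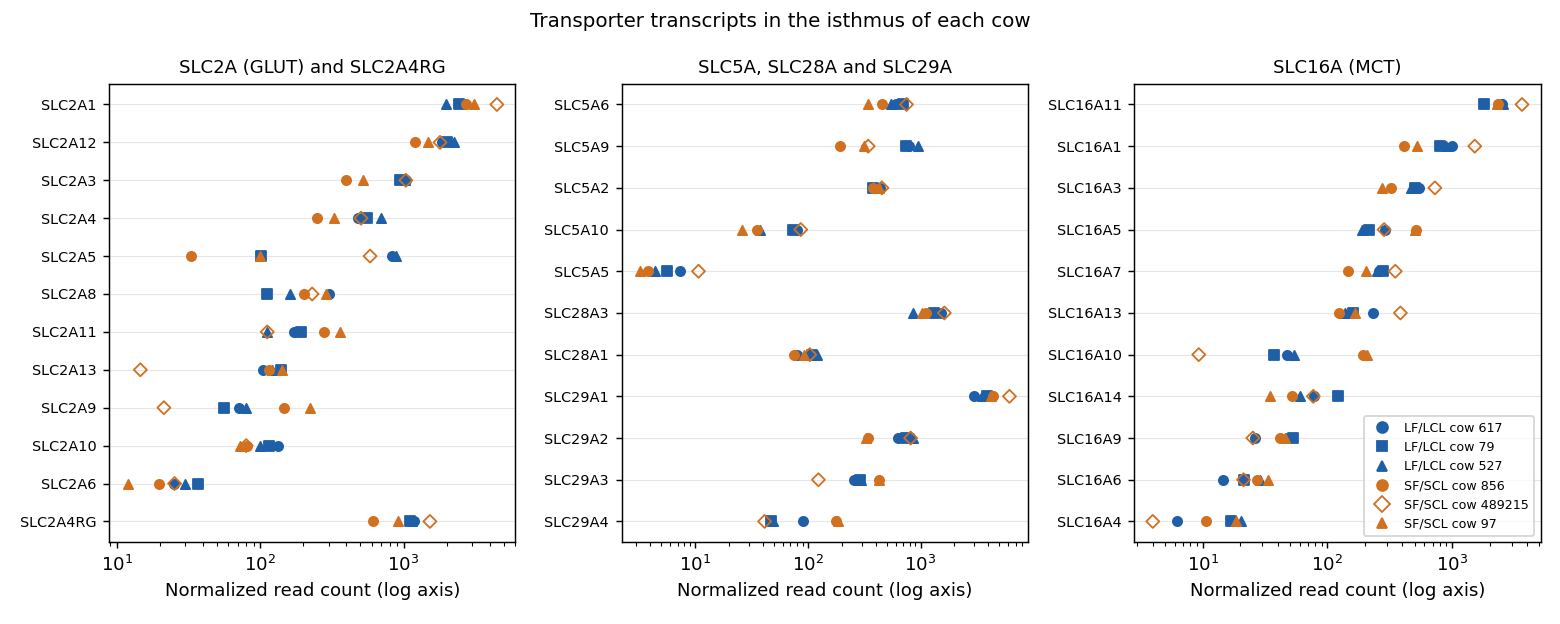
Normalized read count (log axis) of 34 of the members that passed the filter, 1 row per gene and 1 symbol per cow, in blue for LF/LCL and orange for SF/SCL, with cow 489215 as an open diamond. The open diamond lies outside the other 5 cows in 20 of 34 rows, far to the left for SLC2A13, SLC2A9 and SLC16A10 and to the right for SLC2A1, SLC16A1 and SLC29A1.

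With all 6 cows, no member differed between the groups after adjustment. Limma called 0 of 35 members and 0 of 15387 genes (0.00%) at an adjusted p-value under 0.05, and the smallest adjusted p over all genes was 0.351. Before adjustment, 2 members had a p under 0.05, SLC5A9 higher in LF/LCL and SLC16A5 higher in SF/SCL, while 4.48% and 4.19% of all genes tested did so in those directions. The edgeR quasi-likelihood test on the recovered reads also called 0 members, with 2 below 0.05 before adjustment. The DESeq2 Wald test called 1 member, SLC5A9, of 416 genes called (2.70%).

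The groups did not overlap for 5 members. SLC5A9, SLC2A12 and SLC2A10 were higher in every LF/LCL cow (3 of 35, against 8.60% of all genes tested), and SLC2A1 and SLC29A1 in every SF/SCL cow (2 of 35, against 9.51%). These counts are near the background of the whole table. The median log2 fold change (SF/SCL over LF/LCL, negative where LF/LCL was higher) was -0.26 over the members and -0.016 over all genes tested, with 21 members below 0 and 14 above. By family the medians were -0.57 for SLC2A, -0.33 for SLC5A, -0.20 for SLC16A, -0.07 for SLC28A and 0.26 for SLC29A. Without cow 489215 they were -0.26, -0.81, -0.11, -0.22 and 0.47. SLC2A5 and SLC5A5 did not pass the filter without that cow, so these SLC2A and SLC5A medians cover 10 and 4 members, not 11 and 5. The shifts of the SLC2A and SLC5A medians thus include a change of members.

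Among the sodium-coupled carriers, SLC5A9 showed the clearest separation of the groups. SLC5A9 encodes SGLT4, a transporter of mannose, fructose and the glucose analog 1,5-anhydroglucitol. Its normalized counts were 787, 746 and 946 in LF/LCL cows 617, 79 and 527 and 192, 343 and 316 in SF/SCL cows 856, 489215 and 97. The lowest LF/LCL cow was thus above the highest SF/SCL cow, and cow 489215 lay beside cow 97 for this gene. Means were 826 ± 106 and 284 ± 80.7 (SD, n = 3 each), which is 2.91-fold higher in LF/LCL. The limma log2 fold change was -1.57 (SE 0.29, 95% confidence interval -2.26 to -0.88), with an unadjusted p of 0.00117 and an adjusted p of 0.367. The adjusted p was 0.332 by edgeR, 0.000241 by DESeq2 and 0.00663 by limma without cow 489215, so the call rested on the tool and on the libraries kept. The fibroblast marker sum was also higher in every LF/LCL cow than in any SF/SCL cow (78648 in cow 489215), as were the smooth muscle markers MYH11 and SYNM, whereas the smooth muscle sum was highest in cow 489215. The part of these cell types in the SLC5A9 difference was not tested.

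The other SLC5A members did not separate the groups. SLC5A6, the sodium-dependent multivitamin transporter for biotin and pantothenate, had 599.7, 701 and 548 in LF/LCL and 455, 751 and 340.3 in SF/SCL. Cow 489215 was the highest of the 6 cows and the other SF/SCL cows were the lowest. Its log2 fold change was -0.33 (adjusted p = 0.859, limma), and -0.64 (adjusted p = 0.0563) without cow 489215. SLC5A2, the SGLT2 glucose transporter known from the kidney, ran from 375 to 454, the narrowest spread of any member tested (8.7% coefficient of variation over the 6 cows). The log2 fold change of SLC5A2 was 0.08, with a 95% confidence interval of -0.42 to 0.59, so a difference of either sign and of modest size remained possible, and it was 0.03 without cow 489215. SLC5A10 (26 to 86.5) and SLC5A5, the iodide transporter (3.25 to 10.7, or 3 to 8 reads), were low and overlapped.

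Among the facilitative glucose carriers, SLC2A1 was higher in SF/SCL and SLC2A12 and SLC2A10 in LF/LCL in every cow, each within the limits of the test. SLC2A1 encodes GLUT1, the basal glucose carrier of most cells. It had 2666, 2429 and 1990.3 in LF/LCL and 2722, 4477 and 3082 in SF/SCL, and the gap between cow 617 and cow 856 was small. The log2 fold change was 0.51 (SE 0.24, adjusted p = 0.635), and 0.31 (adjusted p = 0.186) without cow 489215, the highest cow. The epithelial marker sum was likewise higher in every SF/SCL cow, and its part in the SLC2A1 difference was not tested.

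SLC2A12, which encodes GLUT12, a further glucose carrier, had 1846, 1995 and 2263 in LF/LCL and 1205, 1797 and 1480.4 in SF/SCL. Cow 489215 fell just under the lowest LF/LCL cow. The log2 fold change was -0.46 (SE 0.21, adjusted p = 0.62), and -0.60 (adjusted p = 0.0287) without cow 489215. SLC2A10, whose product GLUT10 is known from the inherited artery disorder that its loss causes, had 133, 115 and 100.1 in LF/LCL and 80.5, 79.9 and 72.6 in SF/SCL. Its SF/SCL cows were close together and all below the LF/LCL cows. The log2 fold change was -0.57 (SE 0.30, adjusted p = 0.673) and changed little without cow 489215 (-0.59, adjusted p = 0.158).

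SLC2A5, the fructose carrier GLUT5, varied between cows rather than between groups. It had 829, 102 and 885 in LF/LCL and 32.7, 584 and 99.7 in SF/SCL, a 27.1-fold range. Cows 617, 527 and 489215 were high and cows 79, 856 and 97 low, so each group held both kinds. Its log2 fold change was the largest of the SLC2A family at -1.75, but its SE was 1.25 (adjusted p = 0.794). Without cow 489215 its SD exceeded its mean, so it was not in that fit.

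SLC2A4RG had 1179.6, 1109 and 1137 in LF/LCL and 608, 1527 and 910.4 in SF/SCL. The LF/LCL cows were alike and the SF/SCL cows lay on both sides of them (log2 fold change -0.27, adjusted p = 0.888, and -0.62 with adjusted p = 0.058 without cow 489215). The group order of the remaining SLC2A members hung on cow 489215 or could not be told from the spread. SLC2A8, an intracellular hexose carrier, ran from 111 to 304 and SLC2A6, a lysosomal member, from 11.9 to 36.6. SLC2A13, the proton-coupled myo-inositol transporter, had 105 to 141 in 5 cows and 14.6 in cow 489215, and its log2 fold change of -0.94 became 0.07 without that cow. SLC2A11 (111 to 359) was higher in cows 856 and 97 than in any LF/LCL cow, with 112 in cow 489215, and its log2 fold change went from 0.53 (adjusted p = 0.855) to 1.03 (adjusted p = 0.0539) without that cow.

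**Figure D2:**
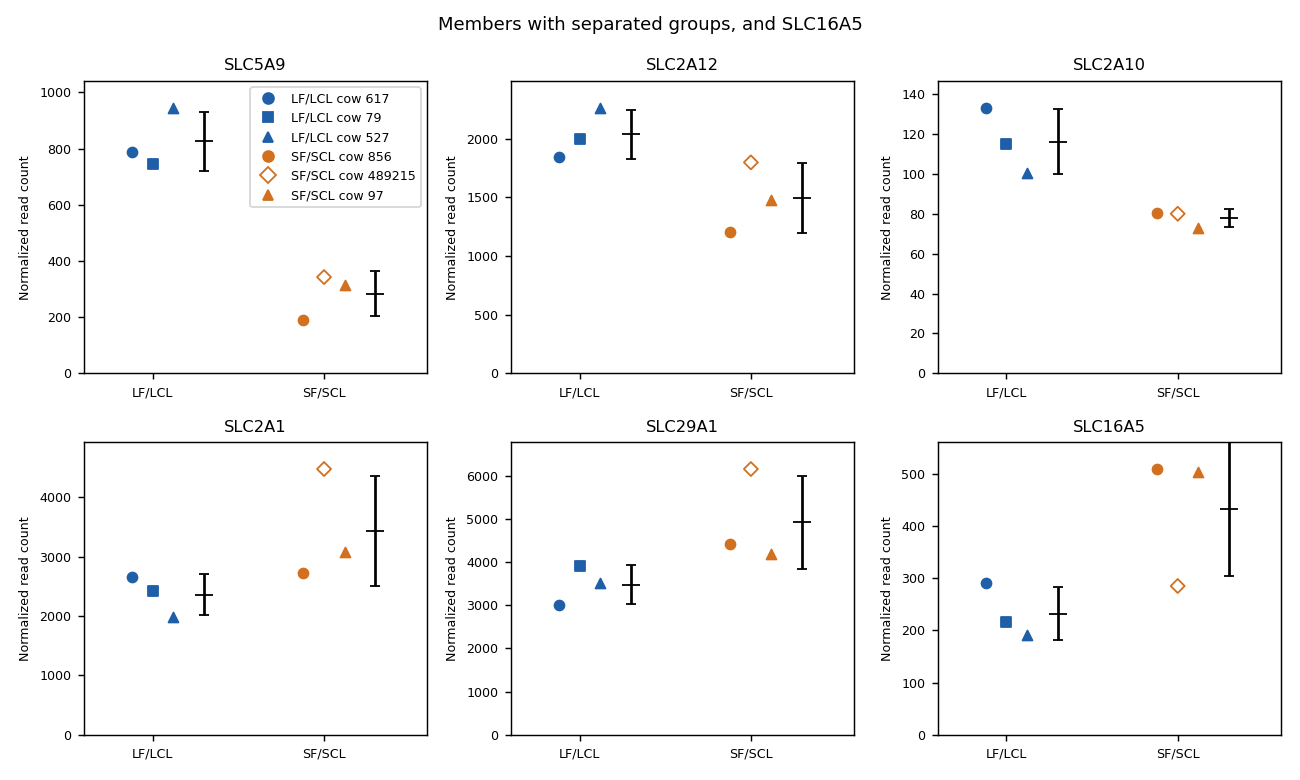
Normalized read count (linear axis from 0) of the 5 members whose groups did not overlap, SLC5A9, SLC2A12, SLC2A10, SLC2A1 and SLC29A1, and of SLC16A5, the other member with an unadjusted p under 0.05. Symbols are cows, and the bar beside each group is the mean ± SD of its 3 cows. SLC5A9 has the widest gap, from 343 to 746, and in SLC16A5 cow 489215 (285) lies below LF/LCL cow 617 (289.9).

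Among the 12 monocarboxylate transporters tested, the groups overlapped in every one with all 6 cows. SLC16A11, an MCT linked to lipid metabolism and type 2 diabetes risk, had 2487, 1809 and 2551 in LF/LCL and 2341, 3632 and 2289 in SF/SCL. The groups overlapped, with cow 489215 the highest (log2 fold change 0.25, adjusted p = 0.859, and 0.04 with adjusted p = 0.897 without cow 489215). SLC16A5 (MCT6), known as a carrier of drugs such as bumetanide, had 289.9, 216 and 191 in LF/LCL and 509, 285 and 504 in SF/SCL. Cows 856 and 97 were well above the LF/LCL cows, and cow 489215 was not. Its log2 fold change was 0.87 (SE 0.33, 95% confidence interval 0.08 to 1.66, unadjusted p = 0.0362, adjusted p = 0.525), and 1.14 (adjusted p = 0.0161) without cow 489215.

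The carriers best known for lactate had 1 common arrangement of cows, and their groups overlapped. SLC16A1, which encodes MCT1, the widespread lactate and pyruvate carrier, had 1005, 803 and 894 in LF/LCL and 411, 1518 and 526 in SF/SCL. Cows 856 and 97 were the lowest of the 6 and cow 489215 the highest. Its log2 fold change was -0.38 (SE 0.49, adjusted p = 0.891). SLC16A3, which encodes MCT4, the carrier known for lactate export from glycolytic cells, had 540.1, 501 and 471 in LF/LCL and 325, 727 and 274 in SF/SCL, in the same arrangement of cows (log2 fold change -0.32, adjusted p = 0.881). SLC16A7, which encodes MCT2, a carrier of high affinity, ran from 249 to 279.7 in LF/LCL and had 147, 350.1 and 203 in SF/SCL cows 856, 489215 and 97. Without cow 489215 the log2 fold changes were -0.95 for SLC16A1 (adjusted p = 0.0128), -0.75 for SLC16A3 (adjusted p = 0.0202) and -0.60 for SLC16A7 (adjusted p = 0.0929). The smooth muscle marker sum had the same arrangement of cows, low in 856 and 97 and highest in 489215. Of its genes, DES, TAGLN, CNN1 and ACTA2 had this arrangement too. MYH11, SYNM and LMOD1 were not highest in cow 489215 (116653, 4730.3 and 10359). The part of smooth muscle in the lactate carriers was not tested.

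The amino acid carrier of the family had its lowest value in cow 489215. SLC16A10 (TAT1), a carrier of aromatic amino acids, had 47.1, 37.5 and 54.5 in LF/LCL and 194, 9.32 and 207 in SF/SCL. Cows 856 and 97 were high and cow 489215 was below every other cow, the 22.2-fold range giving the highest coefficient of variation of the 35 members tested (93.7%). Its log2 fold change was 0.67 (SE 1.17, adjusted p = 0.911), and 2.1 (adjusted p = 0.00629) without cow 489215. SLC16A13, which lies beside SLC16A11 in the RefSeq annotation of the NIAB-ARS_B.indTharparkar_mat_pri_1.0 assembly, ran from 125 to 231 in 5 cows and reached 385 in cow 489215, and its log2 fold change of 0.21 became -0.26 without that cow. SLC16A14 (34.7 to 121), SLC16A9 (25.3 to 52.6), SLC16A6 (14.7 to 33.6) and SLC16A4 (3.99 to 20.2) overlapped between groups, with adjusted p from 0.77 to 0.956, and from 0.144 to 0.932 without cow 489215.

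**Figure D3:**
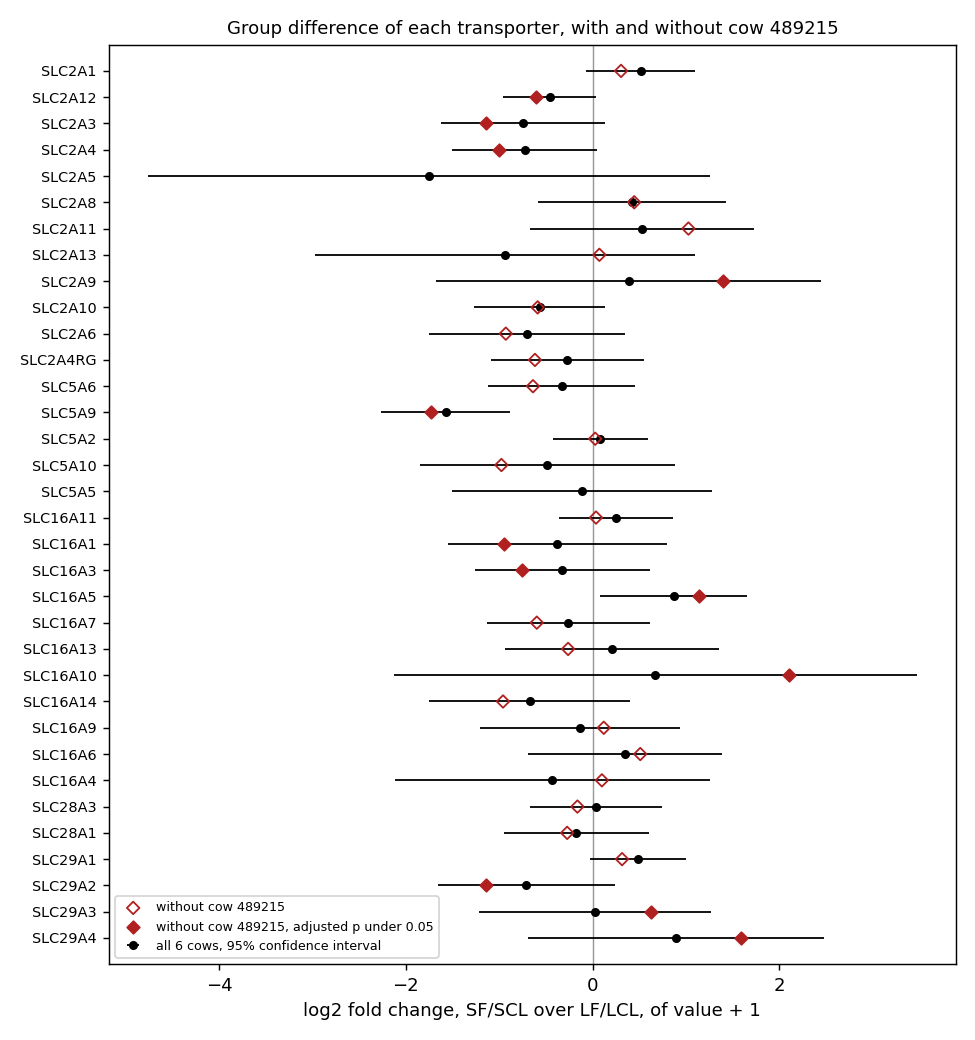
Log2 fold change (SF/SCL over LF/LCL, of value + 1) of 34 members tested. Black circles with 95% confidence intervals are the limma fit to all 6 cows, and red diamonds the fit without cow 489215, filled where the adjusted p was under 0.05. SLC5A9 and SLC16A5 are the members whose intervals with 6 cows leave out 0, and 12 diamonds are filled. SLC2A5 and SLC5A5 have no diamond because they did not pass the filter without cow 489215.

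Among the nucleoside carriers, the equilibrative transporters differed in direction from one another. SLC29A1, which encodes ENT1, the main equilibrative carrier of adenosine in most cells, had 3003, 3918 and 3514 in LF/LCL and 4420, 6156 and 4189.9 in SF/SCL. Every SF/SCL cow was above every LF/LCL cow, and cow 489215 was the highest. The means were 3478 ± 459 and 4922 ± 1075 (SD, n = 3 each), 1.42-fold higher in SF/SCL, with a log2 fold change of 0.49 (SE 0.22, adjusted p = 0.609). Without cow 489215 it was 0.32 (adjusted p = 0.135). The epithelial marker sum was also higher in every SF/SCL cow, with 4 of its 7 genes not overlapping. ELF3, in contrast, was lowest in cows 856 and 97 (529 and 612). The part of these markers in the SLC29A1 difference was not tested.

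SLC29A2 (ENT2), which also carries nucleobases, had 629, 737 and 856 in LF/LCL and 339.5, 817 and 326 in SF/SCL. Cows 856 and 97 were low and cow 489215 was among the LF/LCL cows, the same arrangement as for SLC2A3. The log2 fold change was -0.71 (SE 0.40, adjusted p = 0.706), and -1.14 (adjusted p = 0.00749) without cow 489215. SLC29A3 (ENT3), the lysosomal carrier, had 255, 290 and 297 in LF/LCL and 431, 124 and 432 in SF/SCL. SLC29A4, a plasma membrane monoamine carrier (PMAT), had 90, 46.9 and 49.2 in LF/LCL and 178, 41.3 and 184 in SF/SCL. For both genes cows 856 and 97 were the highest and cow 489215 the lowest. Their log2 fold changes were 0.025 and 0.89 with all cows (adjusted p = 0.993 and 0.803), and 0.62 and 1.59 without cow 489215 (adjusted p = 0.035 and 0.0271).

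The concentrative carriers did not separate the groups. SLC28A3 (CNT3), which takes up purine and pyrimidine nucleosides, had 1521, 1306 and 859 in LF/LCL and 1109.7, 1627 and 1027 in SF/SCL. SLC28A1 (CNT1), the pyrimidine-preferring carrier, had 80.6, 108 and 121 in LF/LCL and 76, 104 and 93.2 in SF/SCL. The LF/LCL cows bracketed most SF/SCL cows for both genes. Their log2 fold changes were 0.04 (95% confidence interval -0.67 to 0.75) and -0.17 (-0.95 to 0.60), and -0.16 and -0.27 without cow 489215. SLC28A2, the purine-preferring carrier, had 0 to 4 reads per library.

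Leaving out cow 489215, which leaves 2 SF/SCL cows against 3 LF/LCL cows, changed the calls, and the members named from this fit alone were chosen after their values were seen. Limma then called 12 of 33 members. SLC2A3, SLC2A4, SLC2A12, SLC5A9, SLC16A1, SLC16A3 and SLC29A2 were higher in LF/LCL (7 of 33, against 7.92% of all genes tested), and SLC2A9, SLC16A5, SLC16A10, SLC29A3 and SLC29A4 were higher in SF/SCL (5 of 33, against 10.3%). The groups did not overlap for 22 members (14 higher in LF/LCL and 8 in SF/SCL), against 52.0% of all genes tested. The share of members called was thus above that of the whole table in both directions, while no test of the difference between the shares was made.

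SLC2A3, SLC2A4 and SLC2A9 were among the members called in this way. SLC2A3 (GLUT3), a glucose carrier of high affinity, had 1048, 945 and 1027 in LF/LCL and 398, 1038 and 523 in SF/SCL. SLC2A4 (GLUT4), the insulin-responsive carrier of muscle and fat, had 480.4, 558 and 693 in LF/LCL and 248, 505 and 327 in SF/SCL. For both, cows 856 and 97 were the lowest and cow 489215 lay within the LF/LCL range. Without it the log2 fold changes were -1.14 (adjusted p = 0.00608) and -1.0 (adjusted p = 0.0233). SLC2A9 (GLUT9), the urate carrier, had 71.2, 56.3 and 79.1 in LF/LCL and 147, 21.3 and 223 in SF/SCL, with cow 489215 the lowest of all, and its log2 fold change went from 0.39 (adjusted p = 0.929) to 1.40 (adjusted p = 0.0253).

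For most of the members that separated the other 5 cows, cow 489215 lay on the LF/LCL side or beyond it. Of the 22 such members, its value was nearer to the LF/LCL mean than to the mean of cows 856 and 97 in 18 (81.8%), and the same held for 70.1% of the 8056 genes of all that separated these cows. Some of the 18 values lay outside the other 5 cows. Cow 489215 was above them all for SLC2A4RG, SLC5A6, SLC5A10, SLC16A1, SLC16A3 and SLC16A7. It was below them all for SLC2A9, SLC16A10, SLC29A3 and SLC29A4. SLC2A1, SLC2A10, SLC5A9 and SLC29A1 were the 4 members for which it was nearer to the SF/SCL mean. Those same 4 also separated the groups with all 6 cows, as SLC2A12 did with cow 489215 at 1797, between the cows of its own group and the LF/LCL cows. The median coefficient of variation over the 6 cows was 35.1% in members and 31.5% in all genes tested.

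**Figure D4:**
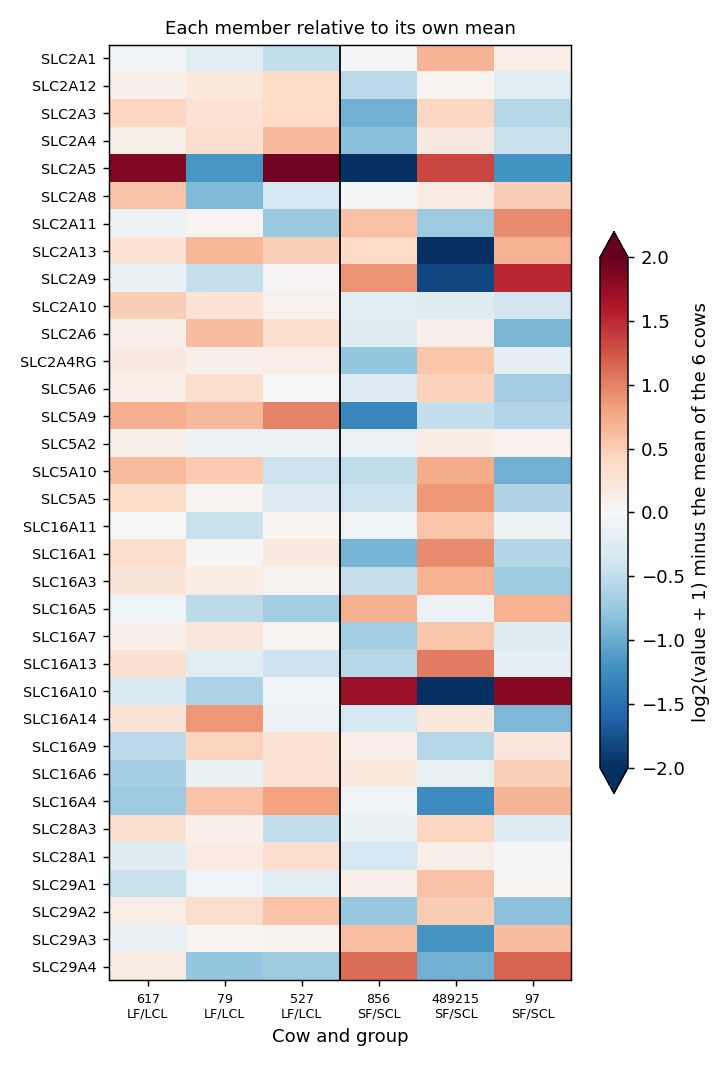
Log2(value + 1) of 34 members tested minus its own mean over the 6 cows, with LF/LCL cows left of the line and SF/SCL cows right of it, red above and blue below the mean, and the colour scale ending at -2 and 2. The column of cow 489215 has the colour of the LF/LCL columns, not that of cows 856 and 97, for SLC2A3, SLC2A4 and SLC29A2, and SLC5A9 is blue in all 3 SF/SCL columns.

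The partners of these transporters were taken from 4 lists of 59 rows, of which 52 passed the filter. Limma called 0 of the 52 with all cows, 3 had an unadjusted p under 0.05 (1 higher in LF/LCL and 2 in SF/SCL), edgeR called 0 and DESeq2 called 2, ADORA2B and ENTPD2. The groups did not overlap for 9, of which 2 were higher in LF/LCL (8.60% of all genes tested) and 7 in SF/SCL (9.51%). Without cow 489215, limma called 14, of which 8 were higher in LF/LCL (7.92% of all genes) and 6 in SF/SCL (10.3%), the latter share being near the background.

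The lowest p-values of the 4 lists were in adenosine genes, 3 of 19 tested genes of nucleoside and adenosine metabolism and adenosine receptors. ADORA2B, the low-affinity adenosine receptor, had 242, 293 and 421 in LF/LCL and 1107, 659 and 1292 in SF/SCL. Cow 489215 was the lowest SF/SCL cow and still above every LF/LCL cow. Its log2 fold change was 1.66 (SE 0.35, unadjusted p = 0.00239, adjusted p = 0.367 by limma and 0.00171 by DESeq2). ENTPD2, an ectoenzyme that cleaves extracellular ATP to ADP, had 658, 692 and 667 in LF/LCL and 1013, 1097 and 1410 in SF/SCL. All SF/SCL cows, cow 489215 included, were above the narrow LF/LCL range (log2 fold change 0.79, SE 0.20, adjusted p = 0.398 by limma and 0.0205 by DESeq2). ENTPD1 (CD39), which takes ATP and ADP on to AMP, went the other way, with 338, 394 and 491 in LF/LCL and 223, 125 and 257 in SF/SCL. Its LF/LCL cows were all higher (log2 fold change -1.06, SE 0.35, adjusted p = 0.463). Without cow 489215 the 3 genes had adjusted p of 0.00522, 0.0178 and 0.0481. DCK, a kinase that phosphorylates imported deoxynucleosides, had 409 to 472 in LF/LCL and 492 to 639 in SF/SCL (adjusted p = 0.726, and 0.238 without cow 489215). The other adenosine receptors tested, ADORA2A, ADORA1 and ADORA3, did not share the direction of ADORA2B, and their groups overlapped. Their log2 fold changes were -1.05, -0.25 and -0.18 (adjusted p = 0.642, 0.908 and 0.958, limma). Without cow 489215 they were -1.17, -0.71 and 0.22 (adjusted p = 0.162, 0.0402 and 0.823).

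**Figure D5:**
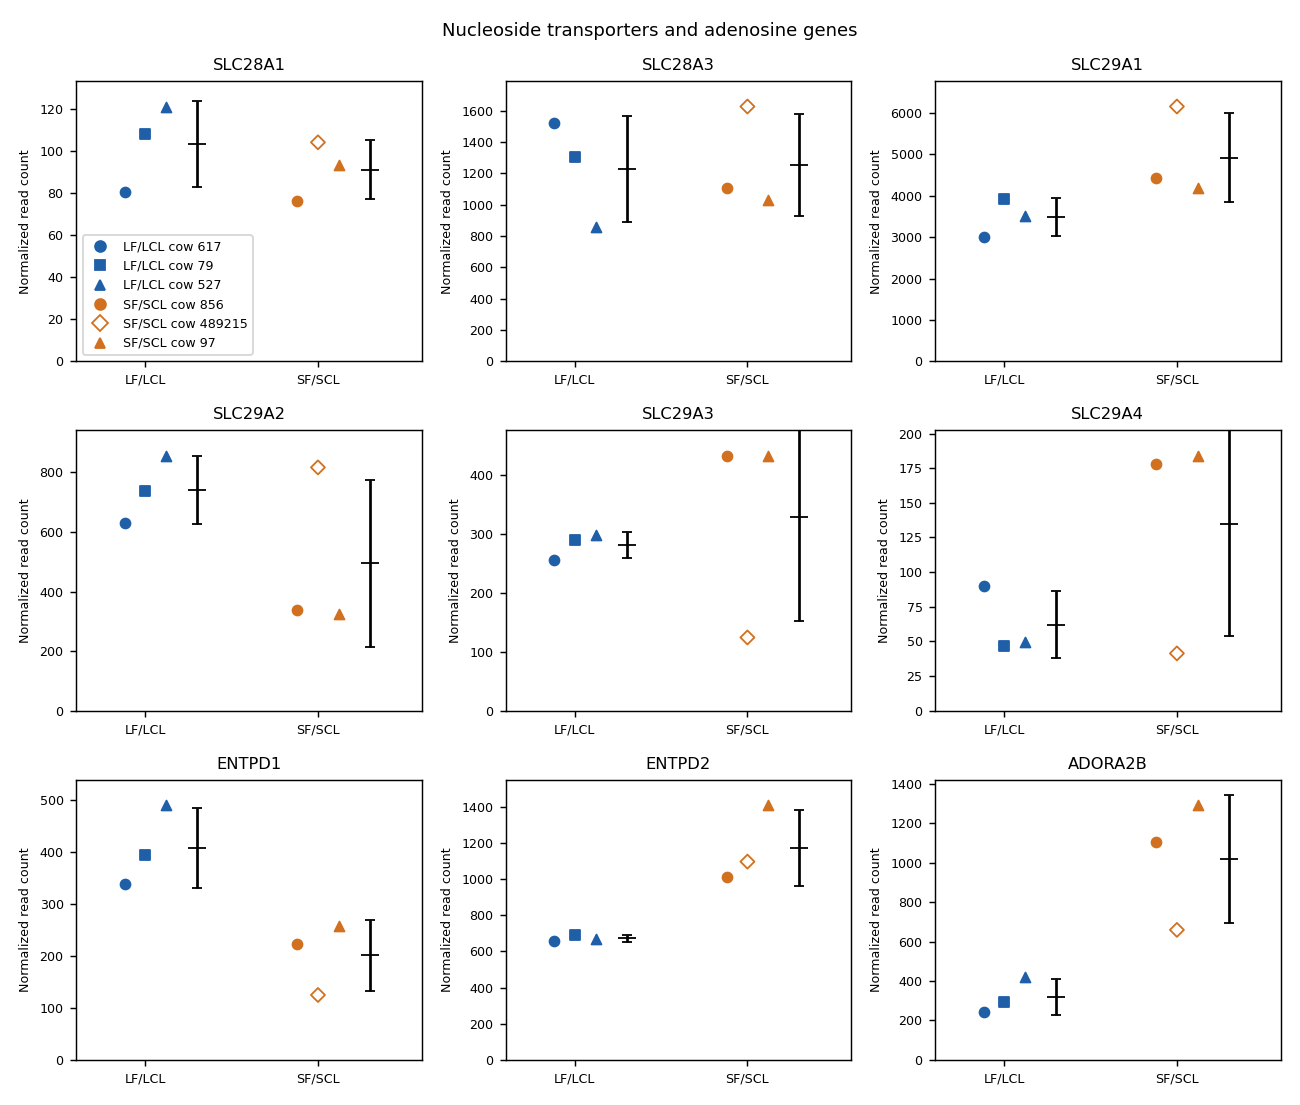
Normalized read count (linear axis from 0) of 6 nucleoside transporters and of ENTPD1, ENTPD2 and ADORA2B, 1 symbol per cow, with the mean ± SD of the 3 cows beside each group. SLC29A1, ENTPD2 and ADORA2B are higher in every SF/SCL cow and ENTPD1 in every LF/LCL cow, while in SLC29A2, SLC29A3 and SLC29A4 the open diamond of cow 489215 lies apart from the other SF/SCL cows.

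The chaperones of the lactate carriers overlapped between groups. BSG had 32594, 35872 and 36691 in LF/LCL and 23444, 66123 and 28027 in SF/SCL. EMB had 1237, 874 and 971 in LF/LCL and 1450, 615 and 1387 in SF/SCL. BSG thus had the same arrangement of SF/SCL cows as SLC16A1 and SLC16A3, high in cow 489215 and low in the others, and EMB the opposite one. The log2 fold changes were 0.006 and 0.08 with all cows (adjusted p = 0.997 and 0.967), and -0.45 and 0.48 without cow 489215 (adjusted p = 0.0392 and 0.0857).

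Of the 13 tested partners and regulators of GLUT and MCT proteins, TBC1D4 separated the groups. TBC1D4 (AS160), which holds GLUT4 vesicles inside the cell until insulin signals, had 1054, 1188 and 1102 in LF/LCL and 719, 458 and 988 in SF/SCL (log2 fold change -0.69, adjusted p = 0.606, and -0.40 with adjusted p = 0.127 without cow 489215). All SF/SCL cows were lower, and cow 489215 was the lowest. Limma called 0 of 5 tested sodium pump subunits with all cows. Of 15 tested genes of the first steps of sugar, lactate and inositol use, GPI, CDIPT and IMPA2 were higher in every SF/SCL cow. GPI, the glycolytic isomerase, had 3219 to 3541 in LF/LCL and 3949.8 to 7183 in SF/SCL (adjusted p = 0.652, and 0.0963 without cow 489215). CDIPT, which joins inositol to a lipid, had 1093 to 1222 and 1306 to 1924 (adjusted p = 0.644, and 0.147 without cow 489215). Cow 489215 was the highest SF/SCL cow for both.

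Reads could not be assigned with certainty for every member. In the RefSeq annotation of the assembly named above, 40 of the 43 members were found by symbol and 23 of them overlapped another gene, among them SLC2A12 with TBPL1, SLC16A3 with CSNK1D, SLC5A6 with ATRAID and SLC2A4RG with LIME1. SLC5A9, SLC2A1, SLC2A10, SLC2A4 and SLC29A2 overlapped none there. Whether the counting used the strand is not given in the sources used here. The counts of such overlapping genes may thus be affected, in a direction that was not tested.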

How the data were processed

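Isthmus RNA-seq libraries of 6 cows (3 LF/LCL, 3 SF/SCL) were compared. The authors aligned paired reads to the masked bovine assembly UMD3.1 with TopHat2 and Bowtie2 (per the submitters' processing notes), used HTSeq to count the reads that mapped uniquely to Ensembl genes, and deposited signal values, which are these counts divided by each library's DESeq size factor. All 24616 values of each library were whole multiples of a single step within 0.1 read (100%), so whole reads were recovered. A count of 0 leaves room for 3 reads, for counting error only.

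The main test was limma 3.58.1 (R 4.3.3, trend and robust) on log2(value + 1), so fold changes of low genes are understated. Genes with a mean above 5 and above the SD were tested (15387), with a Benjamini-Hochberg threshold of 0.05. The filter and threshold are those written in the study's methods, but the filter on the mean alone, an alternative here, keeps 15922 genes, the number the study analysed, so the filter it applied may have been that one. Alternatives were edgeR 4.0.16 and DESeq2 1.42.0 on the recovered reads, TMM rescaling, pseudocounts 0.5 and 5, other filters, and each cow left out. The fits were tested on simulated data. Unused columns of values numbered 0. Other calculations used Python 3.11.15 with pandas 2.3.3, and plots matplotlib 3.10.9.

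The members and gene lists were chosen with earlier results of these data known. Values in every cow were given for members that passed the filter with an unadjusted p under 0.05, groups that did not overlap, a log2 fold change of at least 1 in size, or a place among the 2 highest means of their family. Pathway genes were named by p or non-overlap, at most 8, with BSG and EMB always. Other genes with values were chosen after their values were seen. P-values measure the spread between cows, 1 library each. Positions, lengths and sequences were not used here, and levels are not compared between genes. Some genes counted in the totals are not reported here by name.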

Additional observations from a re-analysis of the deposited data

How the results depend on the processing

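The absence of calls depended on the tool and on cow 489215. DESeq2 called 416 genes, 1 member and 2 pathway genes, where limma and edgeR called 0 of each. TMM rescaling, pseudocounts 0.5 and 5, and both other filters kept all 3 counts at 0. With each cow left out in turn, limma called 0 to 2827 genes, 0 to 12 members and 0 to 14 pathway genes, the highest counts being those without cow 489215 and the others 0. Members whose groups did not overlap numbered 5 to 22, with 22 without cow 489215 and 12 without cow 617. Separation is easier to reach with a cow left out. It held for 52.0% of all genes tested without cow 489215. The share of all genes without cow 617 was not computed, so the 12 is not read as a result about the members. The family medians of the log2 fold change ran from -0.566 to -0.257 in SLC2A, from -0.807 to -0.069 in SLC5A and from -0.272 to -0.005 in SLC16A. Leaving out cow 489215 gave -0.257, -0.807 and -0.112, and in SLC16A leaving out cows 79, 527 and 856 gave -0.077, -0.08 and -0.005, and in SLC5A leaving out cow 97 gave -0.069. The members that passed the filter were not the same in each of these fits. SLC2A5 and SLC5A5 were missing without cow 489215, and SLC16A10 without cow 856, so these medians also changed in the members they cover.

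The sign of some fold changes turned. With all 6 cows these were not all close to 0, with limma values of -0.94 for SLC2A13, -0.43 for SLC16A4 and 0.39 for SLC2A9. SLC28A3 had -0.001 by edgeR, and after TMM rescaling SLC29A3 had -0.003 and BSG -0.021. With a cow left out, the log2 fold change ran from -1.517 to 0.073 for SLC2A13, from -0.27 to 1.395 for SLC2A9, from -0.617 to 0.047 for SLC2A4RG, from -0.263 to 0.163 for SLC5A5, from -0.597 to 0.025 for SLC16A7 and from -0.262 to 0.543 for SLC16A13. It ran from -0.432 to 0.12 for SLC16A9, from -0.904 to 0.1 for SLC16A4, from -0.197 to 0.214 for SLC28A3, from -0.275 to 0.623 for SLC29A3, from -0.45 to 0.298 for BSG and from -0.137 to 0.481 for EMB. The cause was not tested. SLC5A9 stayed between -1.733 and -1.316. Of 48 single-gene fold changes, 48 kept their sign under both pseudocounts and both filters.

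No paired analysis was possible because the cow numbers are not shared between groups. With 3 cows a group and 1 library that stands apart, differences the size of most members' could not be told from the spread between cows, and depth limits SLC5A5, SLC16A4 and the members not tested.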

Other observations

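PDZK1, AKR1B1 and CDA are among the 14 pathway genes called without cow 489215 and were chosen after their values were seen. PDZK1, a scaffold protein that binds the tails of membrane transporters, had 6052, 5976 and 6763 in LF/LCL cows 617, 79 and 527, 220.3 and 1209 in SF/SCL cows 856 and 97, and 6243 in cow 489215. AKR1B1, the aldose reductase that makes sorbitol from glucose, had 2525, 1999 and 3178 in LF/LCL, 586 and 499.6 in cows 856 and 97, and 4075 in cow 489215. CDA, the cytidine deaminase of pyrimidine salvage, had the opposite arrangement, with 245, 322 and 265 in LF/LCL, 928 and 814 in cows 856 and 97, and 189 in cow 489215. By limma with all 6 cows their adjusted p-values were 0.626, 0.754 and 0.77. Without cow 489215 they were 0.0139, 0.00251 and 0.00301, with log2 fold changes of -3.60, -2.22 and 1.65.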
